A study of Mus musculus with 6 samples.

Results

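The receptors by which cells detect foreign or misplaced nucleic acid, together with the Toll-like receptors TLR2, TLR3 and TLR4, were compared at the transcript level between mouse cells overexpressing PPARγ2 K382Q and cells overexpressing PPARγ2 K382R. The genes were taken by symbol. They were *Rigi*, *Ifih1*, *Dhx58*, *Mavs*, *Cgas*, *Sting1*, *Zbp1*, *Tlr2*, *Tlr3* and *Tlr4*, which are 10 of the 56884 genes in the tables. All 10 passed the filter on low values and were tested.

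The cells were an immortalized line from the stromal vascular fraction (SVF) of mouse subcutaneous white adipose tissue (scWAT), the fraction that holds adipocyte precursors. PPARγ2 is the nuclear receptor that drives adipocyte differentiation, and it was introduced with an HA tag by a retroviral vector, followed by puromycin selection. In K382Q the lysine is replaced with glutamine, which resembles acetylated lysine, and in K382R with arginine, which resembles the deacetylated form. Both groups were harvested at day 2 of beige adipocyte differentiation in medium with isobutylmethylxanthine, indomethacin, dexamethasone, insulin, T3 and 0.5 µM rosiglitazone, a PPARγ agonist, with 3 biological replicates of each. No library of cells with unmutated PPARγ2 or an empty vector was analysed here, so each value is a difference between the mutants. The labels do not say that the replicates came from separate transductions, so the mutant and the cell line that carries it cannot be told apart, and the p-values measure only the spread between these libraries.

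RIG-I (encoded by *Rigi*), MDA5 (*Ifih1*) and LGP2 (*Dhx58*) are the RIG-I-like receptors, helicases of the cytosol that bind viral or self double-stranded RNA. RIG-I and MDA5 signal through the mitochondrial adaptor MAVS, and LGP2 modulates them. Cytosolic DNA is bound by cGAS, which makes a cyclic dinucleotide that activates STING, and left-handed nucleic acid is bound by ZBP1. Toll-like receptors survey the cell surface and endosomes, and many of these genes are themselves induced by interferon (IFN), so that a cell exposed to IFN becomes a more sensitive detector. Adipocytes and their precursors are known to express several of them, TLR4 in particular as a receptor for lipopolysaccharide.

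The total length of aligned reads was estimated as the most common ratio of coverage to FPKM over well-covered genes. It was 5.95 to 7.5 Gb in K382Q and 6.53 to 8.15 Gb in K382R. The ratio differed between genes, so these lengths are estimates. Levels are given in TPM, a share of all transcripts of a library that is corrected for gene length. Adipocyte markers were abundant in every library, and *Fabp4*, which encodes a fatty acid carrier of adipocytes, was the most abundant transcript in all 6. *Pparg* itself had a TPM of 1333, 1164 and 1104 in the K382Q libraries and 1590.0, 1632 and 1612 in the K382R libraries, a total that mixes endogenous and introduced transcripts and does not show which mutant a library carries. This total was itself called lower in K382Q, with a log2 fold change of -0.43 (adjusted p = 0.000977, limma), or -0.28 after median-ratio scaling, and its part in the differences between the groups was not tested. Of 14 leukocyte markers 12 were under 1 TPM in every library, *Adgre1* and *Cd3e* were listed at 0, and *Ptprc* did not exceed 0.0129 TPM. Their summed level was 5.82 to 6.15 TPM in K382Q and 5.73 to 7.003 TPM in K382R, most of it from *Cd68*, at 3.17 to 5.10 TPM, and *S100a8*, at 1.03 to 2.70 TPM, neither of which was called. Endothelial markers summed to 1.63 to 2.25 TPM in K382Q and 1.69 to 1.82 TPM in K382R, nearly all from *Pecam1*. In bulk RNA, fewer cells of a type and less RNA per cell cannot be told apart.

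Of the 10 transcripts, 9 were called lower in K382Q and 0 were called higher, a call being an adjusted p-value below 0.05 (limma on log2(TPM + 0.5), Benjamini-Hochberg adjustment over 15426 tested genes). Among all tested genes, 36.9% were called lower and 11.1% higher. The exception was *Mavs*. In the same 9 genes every K382Q library lay below every K382R library, which was so for 42.8% of all tested genes. For 5 of them, *Ifih1*, *Dhx58*, *Sting1*, *Zbp1* and *Tlr2*, the fold change also exceeded 2, a combination met by 2.61% of all tested genes in that direction. The median log2 fold change of the 10 was -0.99, beside -0.14 over all tested genes. Median-ratio scaling, which sets the median gene near no change (0.0032), left 2 of the 5 past 2-fold, *Zbp1* and *Tlr2*.

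**Figure D1:**
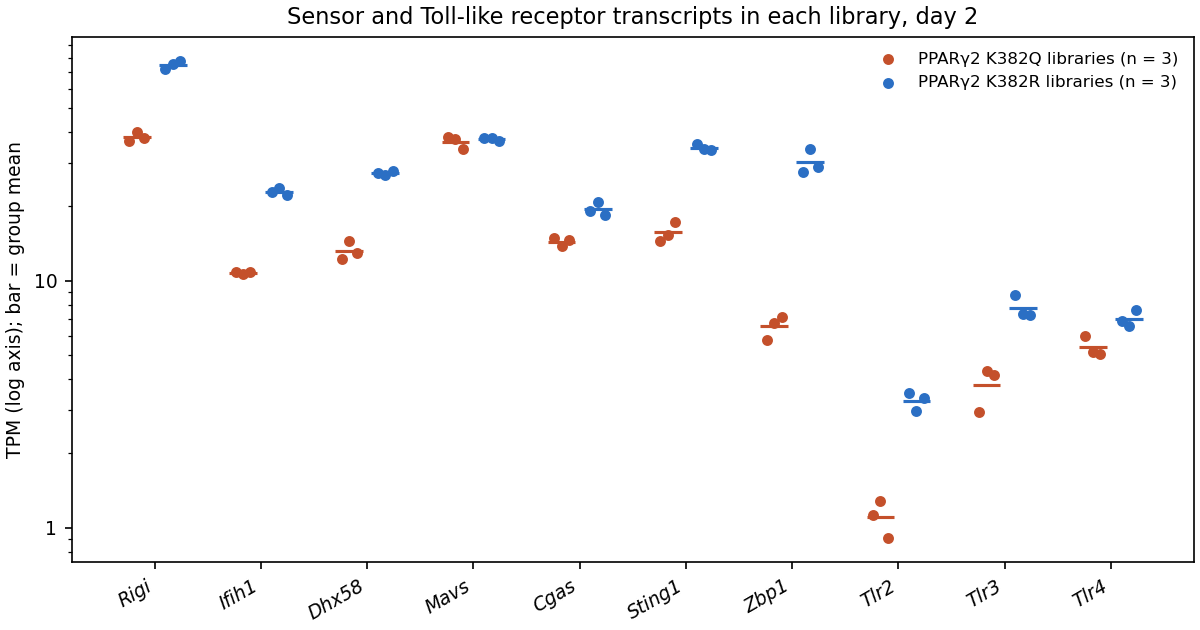
Level of each sensor and receptor transcript in each library at day 2, in TPM on a log axis. Points are single libraries of PPARγ2 K382Q (n = 3) and PPARγ2 K382R cells (n = 3), and bars are group means. The points of the mutants overlap for *Mavs* alone, and the widest separation is that of *Zbp1*, with means of 6.56 and 30.2 TPM.

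The bases around the transcript starts were searched for motifs known from IFN signalling, because most members differed in the same direction. The window ran from 250 bases before to 50 bases after the start of the canonical transcript, in GRCm39. The core bound by IFN regulatory factors (IRF) was searched as TTTCNNTTTC, which reads GAAANNGAAA on the opposite strand. It occurred in 3.84% of 21770 protein-coding promoters and in 4 of the 10 members, namely all 3 RIG-I-like receptors and *Zbp1*. The stretches are printed 5′ to 3′ in the direction of the gene, all from the minus strand, with the matched letters in capitals. They are chr4:40239804-40239833 for *Rigi*, chr2:62476558-62476577 for *Ifih1*, chr11:100595082-100595111 for *Dhx58* and chr2:173060742-173060825 for *Zbp1*.
Rigi: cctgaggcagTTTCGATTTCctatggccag
Ifih1: gaagagaatcGAAACAGAAA
Dhx58: cctccccttgTTTCAGTTTCatttctagag
Zbp1: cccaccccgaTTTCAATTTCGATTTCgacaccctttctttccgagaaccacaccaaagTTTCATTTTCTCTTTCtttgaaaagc

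Counted from the first transcribed base as +1, the match lay at 12 to 21 in *Rigi*, at 41 to 50 in *Ifih1*, where the window ended, and at -4 to 6 in *Dhx58*. *Zbp1* held 4 matches as overlapping pairs, at -91 to -82 and -85 to -76, and at -43 to -34 and -37 to -28. The palindromic letters TTCNNNGAA of the IFN-γ activated site (GAS) occurred in 8.82% of promoters. Among the members they were found in *Sting1*, at -39 to -31, and in *Zbp1*, at -63 to -55 and at -30 to -22, the latter overlapping an IRF match. The direct repeat AGGTCANAGGTCA, the letters that PPARγ binds with RXR, occurred in 10 promoters of the 21770 and in 0 of the members. A match of letters is a description of the window and not evidence of binding, and the absence of a match says only that these exact letters were not there. For *Tlr3* the window, set by the canonical transcript, did not reach the gene end given with the levels, so the bases around that end were not searched.

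**Figure D2:**
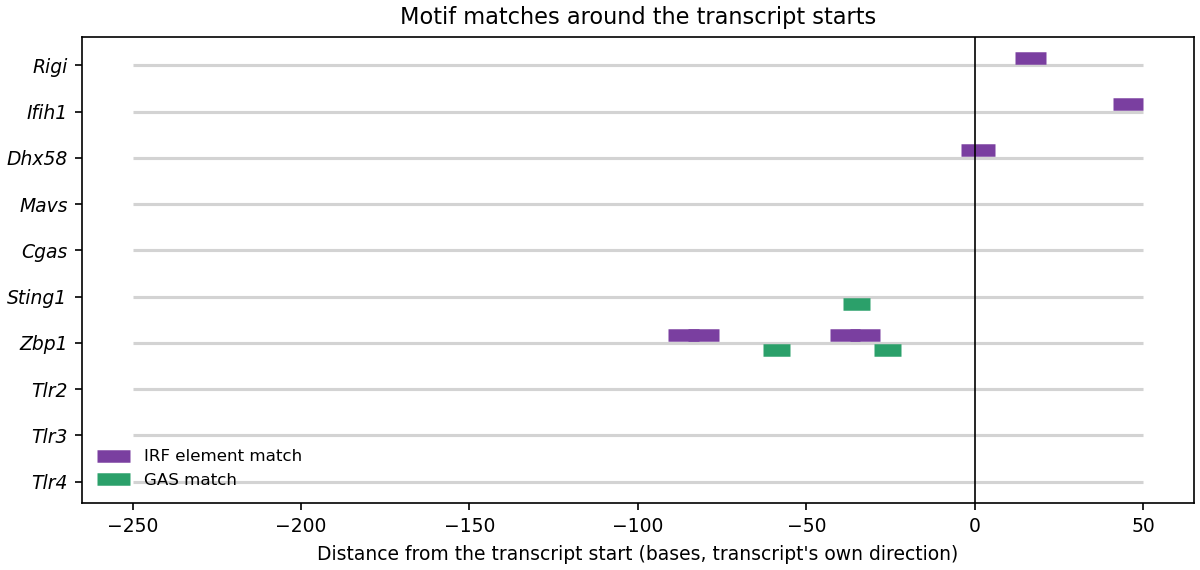
Position of motif matches around the transcript start of each gene, in bases in the direction of the transcript, over a window of 250 bases before and 50 bases after the start. Upper boxes are IRF element matches, found in 4 genes, and lower boxes are GAS matches, found in 2. *Zbp1* has 4 IRF and 2 GAS matches, and *Mavs*, *Cgas* and the 3 Toll-like receptors have none of either.

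*Rigi* (ENSMUSG00000040296.16, chr4:40203773-40239828, minus strand) encodes RIG-I, the helicase that recognises triphosphate ends of short double-stranded RNA. Its TPM was 36.8, 39.9 and 37.8 in the K382Q libraries and 71.7, 75.3 and 77.8 in the K382R libraries. The groups were far apart, and the libraries of each lay close together. The means were 38.2 ± 1.57 and 74.9 ± 3.08 TPM (SD, n = 3). On the log2 scale the change was -0.96 (SE 0.0467, 95% interval -1.07 to -0.86, adjusted p = 4.12e-06, limma), just short of 2-fold.

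*Ifih1* (ENSMUSG00000026896.15, chr2:62426142-62476599, minus strand) encodes MDA5, which assembles along long double-stranded RNA. Its TPM was 10.9, 10.7 and 10.8 in K382Q and 22.8, 23.6 and 22.2 in K382R. Its K382Q libraries were closer together than those of any other member, with a coefficient of variation of 0.889%, while in K382R it was 3.23%. The groups did not overlap, and the log2 fold change was -1.05 (SE 0.0516, 95% interval -1.17 to -0.93, adjusted p = 4.25e-06, limma).

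*Dhx58* (ENSMUSG00000017830.16, chr11:100585710-100595097, minus strand) encodes LGP2, which lacks the signalling domain of the other RIG-I-like receptors and modulates them. Its TPM was 12.3, 14.5 and 12.9 in K382Q and 27.3, 26.8 and 27.9 in K382R. All K382R libraries exceeded all K382Q libraries. K382Q against K382R gave a log2 fold change of -1.02 (SE 0.0682, 95% interval -1.18 to -0.86, adjusted p = 1.78e-05, limma). An antisense gene, *Dhx58os*, overlaps *Dhx58* over 2637 bases, and the library kit is not stated to keep strand, so reads of the pair cannot be told apart there. It was listed at 0.149 to 0.357 TPM in K382Q and 0.403 to 1.37 TPM in K382R, well under *Dhx58*.

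The promoter stretches of these 3 genes are among those printed above, each with an IRF match within 50 bases of the transcript start.

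*Mavs* (ENSMUSG00000037523.14, chr2:131075983-131089945, plus strand), the adaptor through which RIG-I and MDA5 signal, did not differ detectably between the mutants. Its TPM was 38.1, 37.4 and 34.04 in K382Q and 37.9, 37.8 and 36.8 in K382R. The groups overlapped, with the highest library of the 6 in K382Q. Its log2 fold change was -0.04 (SE 0.0507, 95% interval -0.16 to 0.08, adjusted p = 0.552, limma), an interval that holds no difference beyond 0.16 in either direction on this scale. The sign depended on the scaling, with 0.11 after median-ratio scaling (adjusted p = 0.115, limma), and on a single library, with 0.01 without K382Q replicate 3. Over all tested genes, 62.6% had a lower log2 fold change than *Mavs*.

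The ratio of receptor to adaptor within a library does not depend on how the library was scaled. *Rigi* was about level with *Mavs* in K382Q, at 0.967, 1.07 and 1.11 times its TPM, and well above it in K382R, at 1.89, 1.99 and 2.12 times. The ratio of *Ifih1* to *Mavs* was 0.296 ± 0.0183 in K382Q and 0.610 ± 0.0136 in K382R (SD, n = 3). That of *Dhx58* to *Mavs* was 0.364 ± 0.0362 and 0.729 ± 0.0253. None of these ratios overlapped between the mutants, and each had an exact permutation p of 0.1 (two-sided), the smallest that 3 against 3 libraries allow, or 0.138 with Benjamini-Hochberg adjustment over the 11 ratios computed. Among the receptors themselves the proportions differed less. *Ifih1* stood at 0.283 and 0.306 of *Rigi* in K382Q and K382R, with overlapping libraries, and *Dhx58* at 0.347 and 0.365, also overlapping (exact permutation p = 0.3 for each, unadjusted and adjusted).

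*Cgas* (ENSMUSG00000032344.18, chr9:78337808-78350519, minus strand) encodes the DNA sensor that makes the second messenger cGAMP. Its TPM was 14.8, 13.8 and 14.6 in K382Q and 19.2, 20.8 and 18.4 in K382R. The groups did not overlap, but the distance between them was among the shorter ones, with a log2 fold change of -0.42 (SE 0.0625, 95% interval -0.56 to -0.27, adjusted p = 0.000998, limma). Over all tested genes, 16.5% had a lower log2 fold change. After median-ratio scaling the value was -0.27, still called (adjusted p = 0.0095, limma).

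*Sting1* (ENSMUSG00000024349.11, chr18:35866732-35873607, minus strand) encodes STING, the receptor for cGAMP in the endoplasmic reticulum. Its TPM was 14.5, 15.3 and 17.3 in K382Q and 35.8, 34.2 and 33.8 in K382R. The groups were far apart. This was a log2 fold change of -1.12 (SE 0.0694, 95% interval -1.28 to -0.96, adjusted p = 1.28e-05, limma). *Cgas* and *Sting1* were therefore at near equal TPM in K382Q, with a ratio of 0.922 ± 0.0912, while *Cgas* was the lower transcript in K382R, with a ratio of 0.562 ± 0.0383 (SD, n = 3, exact permutation p = 0.1, adjusted 0.138).

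*Zbp1* (ENSMUSG00000027514.15, chr2:173048405-173060716, minus strand) encodes a sensor of Z-form RNA and DNA that can engage the kinase RIPK3 and start necroptosis. Its TPM was 5.76, 6.75 and 7.16 in K382Q and 27.5, 34.1 and 28.9 in K382R. Its level in K382R was 4.60 times that in K382Q, the widest distance of the 10 genes. The log2 fold change was -2.12 (SE 0.104, 95% interval -2.36 to -1.88, adjusted p = 4.23e-06, limma), and 0.175% of all tested genes had a lower one. The printed promoter stretch of *Zbp1* holds 4 IRF matches, as overlapping pairs. A link between matches and the size of the change was not tested.

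*Ripk3*, which encodes the kinase that ZBP1 recruits, was not called. Its TPM was 38.3, 37.4 and 36.8 in K382Q and 34.1, 36.7 and 34.8 in K382R, so each K382Q library was slightly above each K382R library. Its log2 fold change was 0.09 (adjusted p = 0.126, limma), but with median-ratio scaling it was 0.24 and was called higher (adjusted p = 0.00285, limma). The ratio of *Zbp1* to *Ripk3* was 0.175 ± 0.0225 in K382Q and 0.855 ± 0.0642 in K382R (SD, n = 3, exact permutation p = 0.1, adjusted 0.138). Of the 6 necroptosis partners 4 were called lower, where 36.9% of all tested genes were, and their list had a median log2 fold change of -0.29. *Mlkl*, which encodes the pore-forming effector, had mean TPM of 64.3 ± 2.19 and 84.9 ± 6.79 (SD, n = 3) and was called lower at -0.39 on the log2 scale (adjusted p = 0.00111, limma), or -0.24 after median-ratio scaling. *Ripk1* (-0.36, adjusted p = 0.0207, limma) lost its call in 8 of 16 alternatives, among them without K382Q replicate 2, K382Q replicate 3 or K382R replicate 3 (-0.35, -0.29 and -0.26). *Casp8*, the caspase that restrains necroptosis, had a log2 fold change of -0.32 (adjusted p = 0.000766, limma), or -0.17 after median-ratio scaling and -0.18 after quantile normalization.

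**Figure D3:**
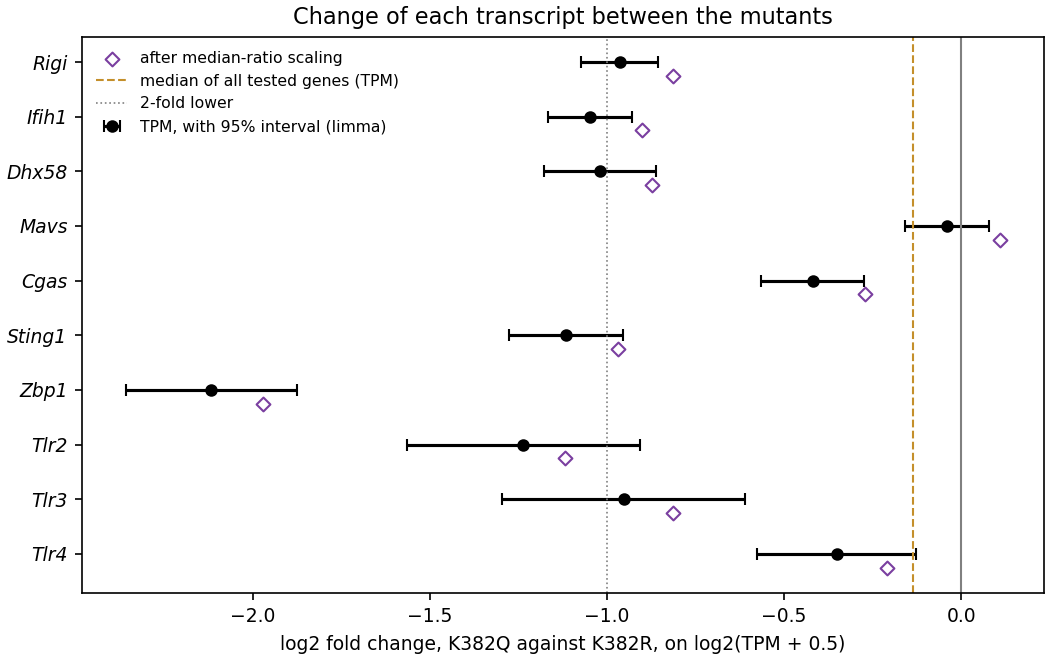
Change of each transcript between the mutants as log2 fold change, K382Q against K382R, on log2(TPM + 0.5). Black points with bars are limma estimates with 95% intervals, diamonds are the values after median-ratio scaling, the dashed line is the median of all tested genes (-0.14) and the dotted line marks 2-fold lower. *Zbp1* lies farthest to the left at -2.12, and the interval of *Mavs* alone includes 0.

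*Tlr2* (ENSMUSG00000027995.11, chr3:83743579-83749074, minus strand) encodes a surface receptor for bacterial lipoproteins. Its TPM was 1.12, 1.28 and 0.907 in K382Q and 3.50, 2.96 and 3.35 in K382R. It was the lowest of the 10 transcripts, with a mean read depth of 2.22 to 3.94 per base in K382Q and 8.42 to 10.6 in K382R, yet the groups were well separated. Its log2 fold change was -1.24 (SE 0.142, 95% interval -1.57 to -0.91, adjusted p = 0.000261, limma). At this level the pseudocount draws the change towards 0, and with a pseudocount of 0.1 it was -1.49. *Tlr2* is among the genes that the study itself picked on these cells, so its direction is not independent evidence.

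*Tlr3* (ENSMUSG00000031639.13, chr8:45848702-45864117, minus strand) encodes the endosomal receptor for double-stranded RNA. Its TPM was 2.93, 4.31 and 4.16 in K382Q and 8.73, 7.31 and 7.24 in K382R. One K382Q library was below the other two, and *Tlr3* in K382Q was the most variable of the members, with a coefficient of variation of 19.8%, but the groups did not overlap. Its log2 fold change was -0.95 (SE 0.147, 95% interval -1.30 to -0.61, adjusted p = 0.00119, limma). The ratio of *Tlr3* to *Ticam1*, which encodes its adaptor TRIF, was 0.350 ± 0.0840 in K382Q and 0.624 ± 0.0549 in K382R (SD, n = 3, exact permutation p = 0.1, adjusted 0.138).

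*Tlr4* (ENSMUSG00000039005.14, chr4:66745821-66848521, plus strand) encodes the lipopolysaccharide receptor. Its TPM was 5.96, 5.15 and 5.05 in K382Q and 6.84, 6.57 and 7.60 in K382R. The groups did not overlap but were close, and the log2 fold change was -0.35 (SE 0.0966, 95% interval -0.58 to -0.13, adjusted p = 0.0185, limma). This call was the least stable of the 9. It was lost in 6 of 16 alternatives, with median-ratio scaling (-0.21), quantile normalization (-0.21), FPKM in place of TPM (-0.25), and without K382Q replicate 2 (-0.32), K382Q replicate 3 (-0.31) or K382R replicate 3 (-0.29), with adjusted p-values of 0.0119 to 0.114 over all 16 (limma). A transcript on the same strand, *Gm57137*, overlaps *Tlr4* over 1557 bases and was listed at 1.37 to 2.58 TPM, so some reads may belong to either.

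The members thus kept a similar but not identical order of abundance. In K382Q, *Rigi* (mean 38.2 TPM) and *Mavs* (36.5) led with overlapping ranges, followed by *Sting1* (15.7), *Cgas* (14.4) and *Dhx58* (13.2), of which neighbours overlapped, and then *Ifih1* (10.8). *Zbp1* (6.56) and *Tlr4* (5.39) overlapped, and *Tlr3* (3.799) and *Tlr2* (1.10) came last. In K382R, *Rigi* (74.9) stood alone at the top, ahead of *Mavs* (37.5). *Zbp1* (30.2) had moved up beside *Sting1* (34.6) and *Dhx58* (27.3), overlapping both, and *Ifih1* (22.9) and *Cgas* (19.5) followed. *Tlr3* (7.76) and *Tlr4* (7.01) overlapped, and *Tlr2* (3.27) was again the lowest.

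The signalling partners of the RIG-I-like receptors were called lower in about the share seen over all tested genes. Of 18 ubiquitin ligases and other signalling partners tested, 7 (38.9%, beside 36.9% of all tested genes) were called lower and 1 (5.56%, beside 11.1%) higher. The other 10 were not called, and the median log2 fold change of the list was -0.19. *Irf7*, the IFN-inducible factor that amplifies type I IFN transcription, was at 30.5, 35.6 and 31.7 TPM in K382Q and at 125, 132 and 122 TPM in K382R. Its log2 fold change of -1.94 (adjusted p = 6.92e-07, limma) was the largest of the list, and it too had been picked by the study on these cells. *Irf3*, the constitutive factor that MAVS, STING and TRIF activate, had overlapping libraries at 41.1, 38.4 and 35.7 TPM in K382Q and 41.3, 39.5 and 42.7 TPM in K382R. The log2 fold change was -0.10 (adjusted p = 0.198, limma), and after median-ratio scaling 0.05.

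Between these factors and the sensors stand the kinases TBK1 and IKKε. *Tbk1* had mean TPM of 33.9 ± 2.45 and 41.2 ± 0.373 (SD, n = 3) and a log2 fold change of -0.28 (adjusted p = 0.00398, limma), which was not called after median-ratio scaling (-0.13) or quantile normalization (-0.12). *Ikbke*, the IFN-inducible kinase of the pair, had 5.32 ± 0.408 and 8.30 ± 0.814 TPM and a log2 fold change of -0.59 (adjusted p = 0.00157, limma). *Rnf125*, which encodes a ubiquitin ligase that marks RIG-I for degradation, fell by 0.84 on the log2 scale (adjusted p = 3.88e-05, limma). The one transcript of this list that rose was *Zcchc3*, a cofactor of RIG-I and cGAS, at 3.90 ± 0.197 TPM in K382Q and 2.60 ± 0.401 in K382R (log2 fold change 0.51, adjusted p = 0.0108, limma).

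**Figure D4:**
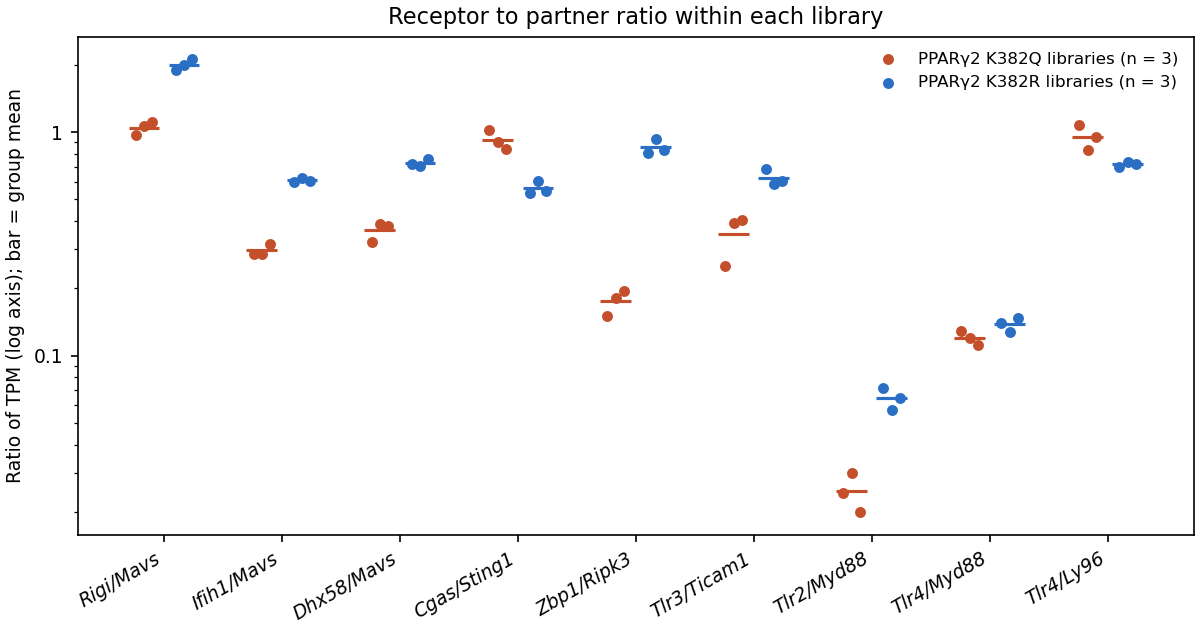
Ratio of a sensor or receptor transcript to the transcript of a signalling partner within each library, on a log axis. Points are single libraries of PPARγ2 K382Q (n = 3) and PPARγ2 K382R cells (n = 3), and bars are group means. The ratio of *Zbp1* to *Ripk3* shows the widest separation, with means of 0.175 and 0.855, and that of *Tlr4* to *Myd88* overlaps.

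Among 13 other nucleic acid sensors 11 were tested, of which 8 (72.7%, beside 36.9% of all tested genes) were called lower, 0 higher (beside 11.1%) and 3 were not called, with a median log2 fold change of -0.34. *Ifi205*, a DNA-binding member of the PYHIN family, fell from 16.0 ± 1.19 TPM in K382R to 6.28 ± 0.528 in K382Q (log2 fold change -1.29, adjusted p = 1.73e-05, limma). Its relative *Mndal* fell by 0.73 (adjusted p = 0.000245, limma). Members of this family are similar in sequence, so reads may be shared between them. *Eif2ak2*, which encodes the RNA-activated kinase PKR, had 52.3 ± 1.32 and 85.9 ± 3.62 TPM and a log2 fold change of -0.71 (adjusted p = 9.42e-06, limma).

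The enzymes that clear or edit nucleic acid, and so limit what the sensors can bind, gave 6 lower (50% of the list, beside 36.9% of all tested genes), 1 higher (8.33%, beside 11.1%) and 5 uncalled of 12 tested, with a median log2 fold change of -0.21. *Adar*, which edits adenosine to inosine in double-stranded RNA and keeps it from MDA5, had 39.6 ± 1.78 TPM in K382Q and 65.3 ± 2.33 in K382R (log2 fold change -0.71, adjusted p = 1.69e-05, limma). *Trex1*, the exonuclease that degrades cytosolic DNA, was at 2.71, 3.48 and 2.59 TPM in K382Q and at 8.52, 7.12 and 3.27 TPM in K382R. One K382R library was within the K382Q range. The log2 fold change of -0.91 (adjusted p = 0.0392, limma) was not called in 10 of 16 alternatives, including those without K382Q replicate 1, 2 or 3 and without K382R replicate 1 or 2, with values from -1.28 to -0.66 over all 16. *Enpp1*, which degrades cGAMP outside the cell, was low at 0.603 ± 0.183 and 1.24 ± 0.0894 TPM, with a log2 fold change of -0.67 (adjusted p = 0.0167, limma) that was not called without K382R replicate 3 (-0.63) and was -0.40 with FPKM. *Rnaset2b* was called higher (0.31, adjusted p = 0.0386, limma), but its libraries overlapped. The call was lost in 8 of 16 alternatives (among them those without K382Q replicate 1, 2 or 3 or K382R replicate 1 or 2, with values from 0.24 to 0.34). *Rnaset2b* shares sequence with *Rnaset2a*, which went the other way and was not called (-0.29, adjusted p = 0.106, limma). Reads may be shared between them, so the rise of *Rnaset2b* alone may not be a rise of the pair.

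On the Toll-like receptor side, the other 9 receptors of the family were all under 1 TPM in every library and were not tested. The highest value among them was 0.530 TPM, of *Tlr5*, and 3 of them were listed at 0 in all 6 libraries. *Tlr2*, *Tlr3* and *Tlr4* were therefore the only receptors of the family above the filter.

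Of 8 tested co-receptors and trafficking factors, 5 (62.5%, beside 36.9% of all tested genes) were called lower and 2 (25%, beside 11.1%) higher, with a median log2 fold change of -0.27. *Ly96* encodes MD-2, the co-receptor that binds lipopolysaccharide together with TLR4. It was at 5.56, 6.18 and 5.32 TPM in K382Q and at 9.79, 8.94 and 10.6 TPM in K382R, with no overlap and a log2 fold change of -0.73 (adjusted p = 0.00042, limma). The ratio of *Tlr4* to *Ly96* was higher in every K382Q library, at 0.952 ± 0.119 in K382Q and 0.718 ± 0.0180 in K382R (SD, n = 3, exact permutation p = 0.1, adjusted 0.138). *Cd14*, which delivers lipopolysaccharide to the complex, had a log2 fold change of -0.32 (adjusted p = 0.0203, limma) that was lost in 7 of 16 alternatives, among them without K382Q replicate 2 or K382R replicate 2 (-0.25 for each) and with median-ratio scaling (-0.17). The transcripts that rose were *Lbp*, the lipopolysaccharide-binding protein, and *Cd36*, a fatty acid translocase of adipocytes that also serves as a co-receptor of TLR2. *Lbp* had 4.004 ± 0.388 and 2.71 ± 0.383 TPM (log2 fold change 0.49, adjusted p = 0.0155, limma), a call lost without K382Q replicate 3 (0.44) and without the filter. *Cd36* had 2238 ± 62.0 and 1657 ± 10.2 TPM (log2 fold change 0.43, adjusted p = 2.24e-05, limma), a change of 0.22 after quantile normalization and 0.59 after median-ratio scaling.

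Of the adaptors, kinases and inhibitors downstream of the Toll-like receptors, 18 were tested, 10 called lower (55.6%, beside 36.9% of all tested genes), 1 higher (5.56%, beside 11.1%) and 7 not called, with a median log2 fold change of -0.18, beside -0.14 over all tested genes. *Myd88*, the adaptor of TLR2 and TLR4, had 44.8 ± 1.83 and 50.7 ± 1.59 TPM, and its log2 fold change of -0.18 (adjusted p = 0.0128, limma) became -0.03 and was not called after median-ratio scaling. The ratio of *Tlr2* to *Myd88* was 0.0247 ± 0.00496 in K382Q and 0.0646 ± 0.00713 in K382R (SD, n = 3, exact permutation p = 0.1, adjusted 0.138). That of *Tlr4* to *Myd88* was 0.120 ± 0.00865 and 0.138 ± 0.00975, with overlapping libraries (exact permutation p = 0.2, adjusted 0.244). *Ticam1* had 11.0 ± 0.650 and 12.4 ± 0.344 TPM and was not called (-0.17, adjusted p = 0.0612, limma), though it was called lower without K382Q replicate 1 (-0.21, adjusted p = 0.0398, limma) and with array weights (-0.19). *Irak3*, an inhibitory kinase of the pathway, had the largest change of the list, -0.55 (adjusted p = 0.00354, limma), followed by *Tirap* (-0.43, adjusted p = 0.00473, limma, or -0.28 after median-ratio scaling) and *Irak4* (-0.38, adjusted p = 0.00563, limma), which was not called after median-ratio scaling (-0.23). *Peli2*, a ubiquitin ligase that acts on IRAK proteins, was the gene that rose (0.31, adjusted p = 0.00142, limma, or 0.47 after quantile normalization). It is named here, as are *Zcchc3* and *Rnaset2b*, because it was among the few that rose, a choice made after the values were seen.

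**Figure D5:**
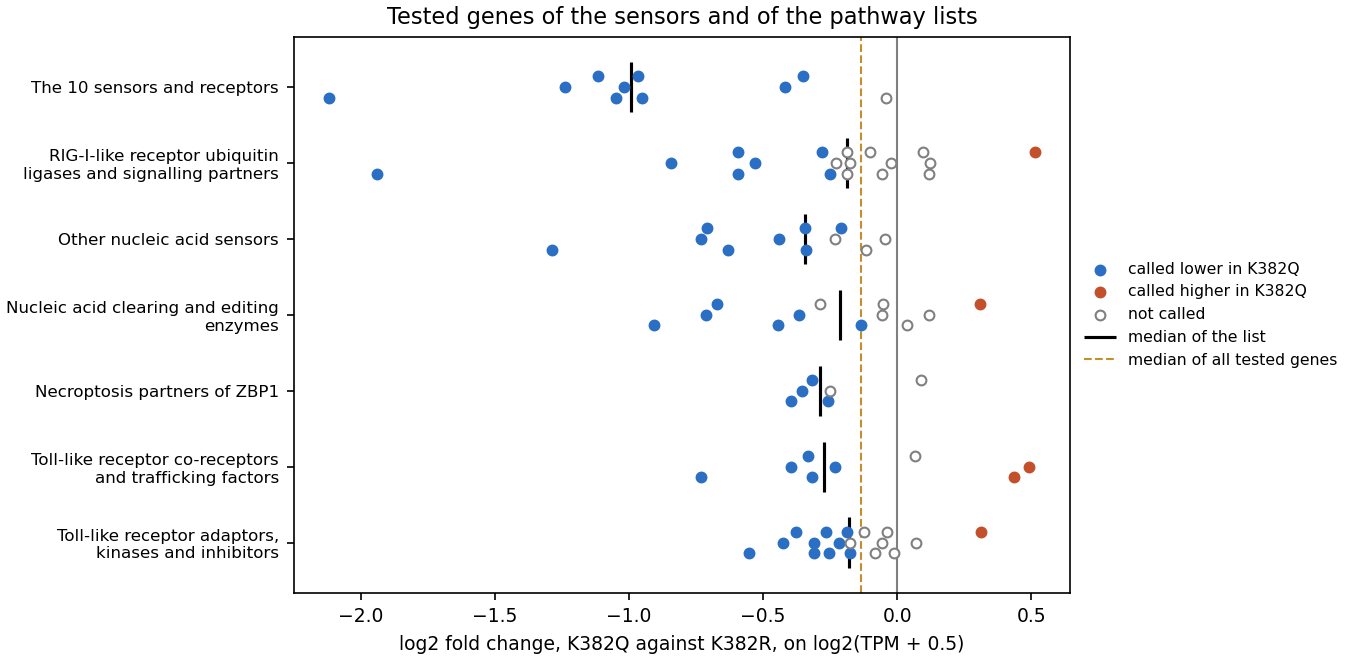
Log2 fold change, K382Q against K382R, of each tested gene of the 10 sensors and receptors and of 6 lists of their pathway partners. Filled points were called lower or higher by limma, open points were not called, black bars are list medians and the dashed line is the median of all tested genes. The median of the sensors and receptors is -0.99, and those of the partner lists lie between -0.34 and -0.18.

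Counted once each, 73 genes of the pathway lists were tested, of which 40 (54.8%) were called lower and 5 (6.85%) higher, beside 36.9% and 11.1% of all tested genes. Their median log2 fold change was -0.23. With median-ratio scaling 24 (32.9%) were lower and 12 (16.4%) higher, beside 20.4% and 19.8% of all tested genes under that scaling. Transcripts of IFN ligands were low or listed at 0. None of the 21 IFN ligand genes passed the filter, 16 were listed at 0 in all libraries, and the highest value was 0.409 TPM. *Ifnb1*, which encodes IFN-β, was listed at 0 in the 3 K382Q libraries and at 0.084, 0.117 and 0.141 TPM in the K382R libraries, values too low for a test here.

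Of the cell type markers, those of stromal progenitors were lower in K382Q, and those of adipocytes went both ways. The 6 tested stromal progenitor markers, of 8, were all called lower in K382Q, where 36.9% of all tested genes were, with a median log2 fold change of -0.82 and a summed level of 570.3 to 614.7 TPM in K382Q against 940.1 to 978.8 TPM in K382R. Most of that sum came from *Ly6a*, which encodes the progenitor surface protein Sca-1 and is itself inducible by IFN. The 8 adipocyte markers summed to 52947 to 56620.1 TPM in K382Q and 44510 to 45708 TPM in K382R, nearly all of it *Fabp4*. Their median log2 fold change was -0.12, beside -0.14 over all tested genes. Of these markers 2 were called higher (25%, beside 11.1%), *Fabp4* (0.34) and *Cidec* (0.27). Another 4 were called lower (50%, beside 36.9%), *Adipoq* (-1.28), *Cebpa* (-0.81), *Pparg* (-0.43) and *Lpl* (-0.19). The part of these differences in the levels of the sensors was not tested.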

How the data were processed

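RNA of 3 libraries of PPARγ2 K382Q-overexpressing and 3 of PPARγ2 K382R-overexpressing cells had been sequenced as paired 150-bp reads. Per the paper's methods, the authors used TrimGalore 0.6.7 for adapters, HISAT2 2.2.1 for alignment to GRCm39, SAMtools 1.14 for sorting and StringTie 2.2.1 for gene abundance. The annotation release is not given in the sources used here. The authors deposited, for each gene and library, the coverage signal (mean read depth per base, not normalized), the FPKM and the TPM. FPKM is scaled to gene length and to the reads of the library, and TPM gives shares of the transcripts of a library. The listed coverage did not stand in the same ratio to TPM in every gene. Counts were not used here, so no counting interval is given. At most 5 entries of a table repeated a gene ID, and these were summed. Between any pair of libraries, identical values were found for 0.0145% of genes or less, so each library was taken as separate.

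A gene was tested if its TPM reached 0.5 in 3 or more libraries, which left 15426. TPM were transformed as log2(TPM + 0.5) and the mutants compared with limma 3.58.1 in R 4.3.3, with a variance trend by level and Benjamini-Hochberg adjustment. The pseudocount draws changes of low genes towards 0. The fit was tested on simulated data beforehand. Within-library ratios were compared with a two-sided exact permutation test (scipy 1.17.1), which cannot give a p-value below 0.1 with 3 against 3.

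The sensors, the gene lists and the motifs were chosen with earlier results of these data known. The genes named were every sensor and receptor, up to 3 called genes of each pathway list with the largest change, and the fixed partners *Irf3*, *Irf7*, *Tbk1*, *Ikbke*, *Myd88*, *Ticam1*, *Cd14*, *Ly96*, *Ripk3*, *Mlkl* and *Ifnb1*, with *Pparg* and the most abundant gene of each cell type marker list. A few other genes are named outside this rule, after their values were seen. Among them are markers listed at or near 0, the called adipocyte markers and the genes that overlap a sensor. The fit was repeated with pseudocounts of 1 and 0.1, without a filter, with a filter at 1 TPM, on FPKM, after median-ratio scaling, after quantile normalization, without the trend, with array weights, with a replicate block, and with each library left out. Sequences were read from the GRCm39 assembly around the start of the canonical transcript in GENCODE release M39. These starts can differ from the gene ends of the deposited tables, most of all for *Tlr3*. Its window, chr8:45863375-45863674, did not reach the gene end at 45864117. Other steps were run in Python 3.11.15 (pandas 2.3.3, numpy 2.4.6, matplotlib 3.10.9).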

Additional observations from a re-analysis of the deposited data

How the results depend on the processing

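Over the 16 alternatives, *Rigi*, *Ifih1*, *Dhx58*, *Cgas*, *Sting1*, *Zbp1*, *Tlr2* and *Tlr3* were called lower in each, with log2 fold changes of *Zbp1* from -2.18 to -1.93 and of *Rigi* from -0.996 to -0.80, and 8 or 9 of the 10 members were called lower. The number of members lower past 2-fold, 5, became 2 with FPKM, 2 with median-ratio scaling and 2 with quantile normalization, and was 4 to 6 when single libraries were left out. *Mavs* was not called under any alternative, and its log2 fold change turned positive with FPKM (0.0421), median-ratio scaling (0.11), quantile normalization (0.12) and without K382Q replicate 3 (0.0084), with -0.071 to 0.0084 when single libraries were left out. *Irf3*, also not called, turned to 0.0493 with median-ratio scaling and 0.0628 with quantile normalization. Over all tested genes, 1717 were called higher and 5698 lower, which became 3057 and 3153 with median-ratio scaling and 2954 and 3241 with quantile normalization. The 403 genes lower past 2-fold became 227 with FPKM. Of the pathway genes, 5 were called higher, against 3 without a filter, 9 with FPKM, 12 with median-ratio scaling and 12 with quantile normalization, and 3 to 5 when single libraries were left out (3 without K382Q replicate 3), and the 40 called lower became 24 with either scaling.

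Same-numbered libraries shared little of their deviations from the group means, with correlations of -0.02, 0.05 and 0.02. These values cannot tell whether such libraries were grown or processed together, which the labels do not say. With a replicate block, 1600 genes were called higher and 5387 lower, and the members gave 9 lower and 5 past 2-fold, as without it, while *Cd14* and *Rnaset2b* were no longer called (adjusted p = 0.0514 and 0.0558, limma). Precision rests on 3 libraries per mutant. Counts were not used, so no counting interval bounds the low values of *Tlr2*, *Enpp1* or the IFN ligands. Nor does any bound *Zbp1*, *Tlr3* and *Tlr4* in K382Q. Their mean read depth there was 4.49 to 5.71, 5.72 to 7.92 and 4.51 to 5.80 per base.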
